A study of Mus musculus with 23 samples.

Results

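The smooth muscle contractile genes described here are Acta2, Actg2, Tagln, Cnn1, Lmod1, Myh11, Mylk, Des, Myocd and Chrm3. They were chosen by symbol, as 10 of the 35322 genes listed in an expression table of lung from 23 mice, and each symbol was found in it. All 10 were among the 16795 genes that passed a filter on low values. The mice were 13-week-old female BALB/c offspring of dams given saline (Sham) or fine particulate matter (PM2.5) into the nose from before mating until weaning. Offspring of both kinds of dam were either challenged with ovalbumin (OVA) aerosol or given aerosol without OVA. The labels call the latter PBS and the methods saline. Challenged mice had first been sensitised to OVA, injected with an aluminium adjuvant. The methods describe sensitisation of each offspring and give only the aerosol for controls, so whether controls were sensitised is unclear. There were 7 Sham, 7 PM, 5 Sham-OVA and 4 PM-OVA libraries, each from 1 mouse. All mice had undergone a methacholine test of lung function before the lung was collected, and the labels do not say which offspring shared a dam.

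Smooth muscle surrounds the airways and blood vessels of the lung and sets their calibre. It shortens when calcium entering the cell activates calmodulin and myosin light chain kinase, which phosphorylates myosin so that its heads pull on filaments of smooth muscle actin. Acetylcholine, and methacholine given in its place, starts this sequence through muscarinic receptors, and constriction of airway smooth muscle is the basis of airway hyperresponsiveness in asthma. The genes of the contractile apparatus are switched on together by serum response factor, which binds CArG boxes in their promoters, and by its coactivator myocardin.

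Values are RPM, the reads of a gene scaled to a total of reads for its library. That total was larger than the reads counted on genes, by a share that differed between libraries. The saline libraries held 13089691 to 17393579 reads on genes and the OVA libraries 2298645 to 12355561. A single read was worth 0.0502 to 0.0688 RPM in the saline libraries, but 0.311 RPM in replicate 3 of Sham-OVA and 0.133 and 0.182 RPM in replicates 3 and 4 of PM-OVA, which were the 3 shallowest. The lung markers, among them the surfactant genes and Scgb1a1, summed to 24650 to 68230 RPM over all libraries, so the labelled tissue was borne out. Sham replicate 1, from a mouse labelled female, held 0.289 RPM of Xist, of which its group otherwise held 528 to 1618 RPM. PM replicate 5 held 312 RPM of the endothelial gene Cldn5, of which its group otherwise held 930.1 to 1138 RPM. In bulk lung, fewer smooth muscle cells and less RNA per cell cannot be told apart.

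In OVA-challenged offspring of Sham dams, the contractile genes went in opposite directions. Acta2, Tagln, Des and Actg2 rose, with Acta2 up 2.12-fold (log2 fold change 1.09 ± 0.15, SE) and Tagln 2.46-fold (1.30 ± 0.20). Myh11, Mylk, Cnn1, Lmod1, Myocd and Chrm3 fell, with Myh11 at 0.351 of its Sham level (-1.51 ± 0.23). All 10 passed an adjusted p of 0.05 in limma with Benjamini-Hochberg adjustment, 4 higher and 6 lower. Over all genes tested 68.1% passed, 20.6% higher and 47.5% lower, so a call in this comparison was common for any gene. Myocd met the filter on low values only through its unchallenged libraries. The median log2 fold change was -0.89 for the contractile genes and -0.48 for all genes tested. In offspring of PM2.5-exposed dams 8 of the 10 passed, 3 higher and 5 lower, against a background of 65.3%, with 20.1% higher and 45.2% lower. The stricter threshold of the study was an adjusted p under 0.000001 with an absolute log2 fold change above 1. In limma 0 of the 10 passed it in either cohort, although all 10 and 8 of them had passed the adjusted p of 0.05. Of all genes 4.51% passed it in the Sham cohort and 0.286% in the PM cohort. The study applied this threshold with DESeq2 on raw counts, so the limma count does not say which members met it there. Among genes it found changed only in Sham offspring, the study lists Mylk as a mesenchymal signature gene, for expression, methylation and both together. Here its expression fell in both cohorts (-1.39 ± 0.24 and -1.35 ± 0.25), and a difference between the cohorts was not called in the main fit.

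**Figure D1:**
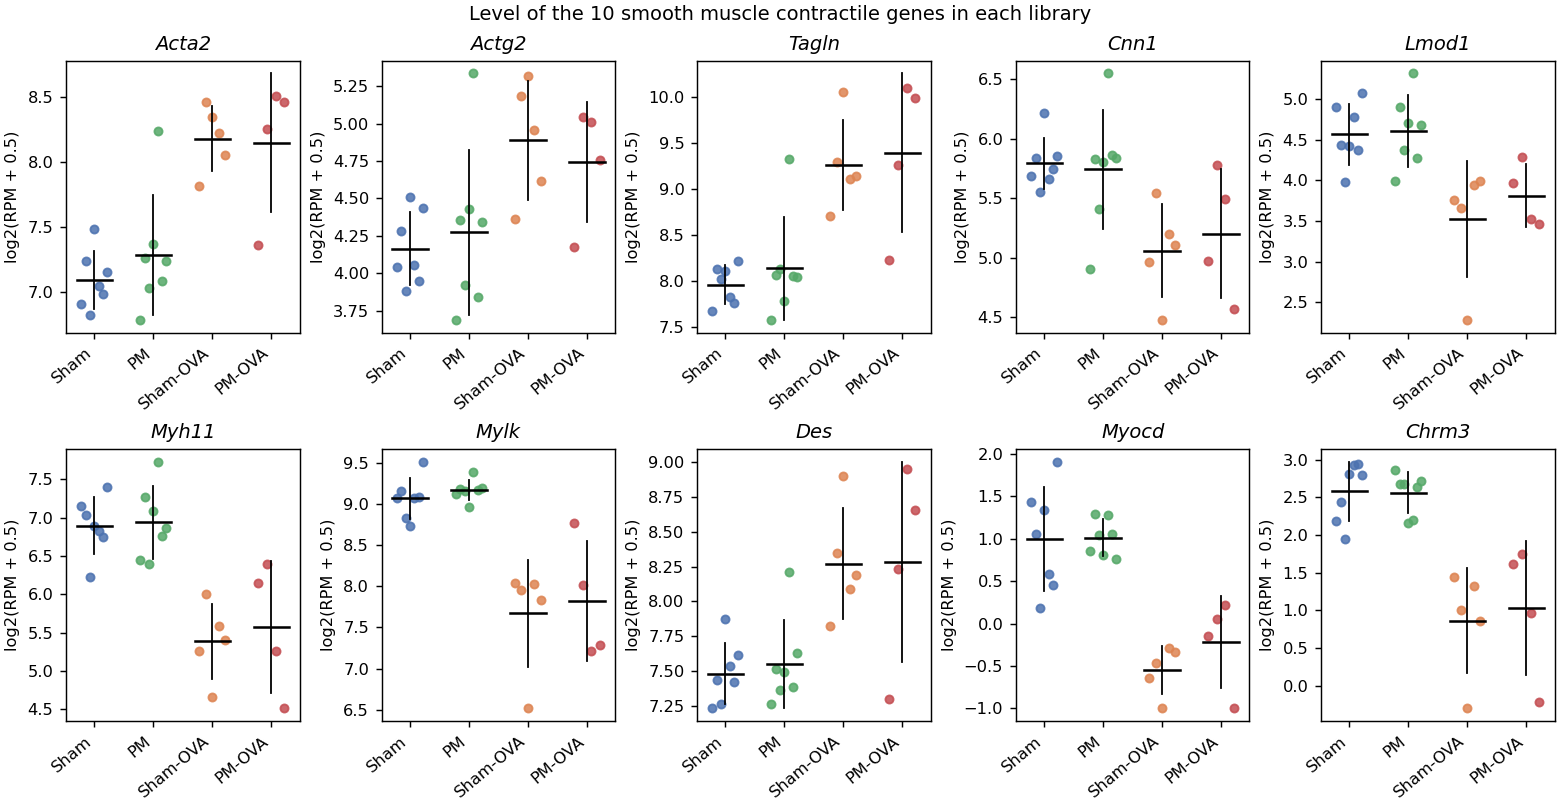
Levels of the 10 contractile genes in each library, as log2(RPM + 0.5) on the vertical axis, by group on the horizontal axis. Points are libraries, horizontal lines group means and vertical lines 1 SD either side. Acta2 and Tagln lie higher in every Sham-OVA library than in any Sham library, whereas Myh11, Mylk, Cnn1, Myocd and Chrm3 lie lower.

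Acta2 encodes smooth muscle alpha actin, the main actin of the thin filament in vascular and airway smooth muscle (chr19:34241090-34255590, reverse strand, GRCm38). Its level ran from 113 RPM through a median of 132 RPM to 178 RPM in Sham, and in the 5 Sham-OVA libraries it was 225, 351, 325, 298 and 266 RPM. All Sham-OVA libraries were above all Sham libraries, and the same held for Tagln, while 13.2% of all genes separated in that direction. The log2 fold change had a 95% confidence interval of 0.77 to 1.404 (adjusted p = 1.95e-05). In PM the lowest, median and highest values were 110, 150.5 and 302 RPM, and the 4 PM-OVA libraries held 164, 305, 362 and 352 RPM. There the groups overlapped, since PM-OVA replicate 1 lay below PM replicates 4 and 5. The log2 fold change was 0.86 ± 0.27 (adjusted p = 0.0144), and without PM-OVA replicate 3 it missed the threshold (0.74, adjusted p = 0.0534). Acta2 reads need not be shared with other actins, as 0 of its 1936 stretches of 100 bases, the read length, recurred in another actin transcript.

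Promoters are shown for Acta2, which rose, and Lmod1, which fell, because these were the members whose promoters held a close match to the CArG box. The promoter sequences are those of RefSeq (GRCm38.p6), from 250 bases before to 50 bases after the start, written 5′ to 3′ in the direction of the gene. They lie at chr19:34255324-34255623 on the reverse strand and chr1:135324563-135324862 on the forward strand. The CArG box is CC, then any 6 letters that are A or T, then GG, and it reads alike on both strands. Capitals mark stretches that are 1 letter off this pattern, and neither promoter holds an exact box.
Acta2: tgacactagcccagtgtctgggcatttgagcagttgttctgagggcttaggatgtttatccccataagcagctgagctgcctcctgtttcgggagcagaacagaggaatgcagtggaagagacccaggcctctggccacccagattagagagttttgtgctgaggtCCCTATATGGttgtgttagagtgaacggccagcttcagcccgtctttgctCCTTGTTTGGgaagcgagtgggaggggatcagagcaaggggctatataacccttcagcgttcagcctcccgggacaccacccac
Lmod1: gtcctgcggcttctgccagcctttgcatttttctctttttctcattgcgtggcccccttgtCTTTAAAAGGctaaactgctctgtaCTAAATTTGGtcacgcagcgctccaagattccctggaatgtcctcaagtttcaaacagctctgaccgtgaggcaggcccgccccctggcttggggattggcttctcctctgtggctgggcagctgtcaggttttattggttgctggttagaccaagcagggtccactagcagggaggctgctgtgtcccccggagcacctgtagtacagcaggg
Promoters of 6 of the 10 genes could be searched, those of Acta2, Cnn1, Des, Lmod1, Mylk and Chrm3, and Myh11, Tagln, Actg2 and Myocd are named only. The Mylk window (chr16:34784700-34784999) lies within the gene, so any other promoter of Mylk was not searched. An exact box was in 0 of the 6 and in 1.63% of 32851 promoters. With up to 1 letter off, allowed after the exact search gave none, 2 of the 6 matched and 21.1% of all promoters did. The first letters of the Acta2 matches lie 84 and 34 bases before the start, and those of Lmod1 189 and 164 bases before it. These matches describe the letters of the window and are not shown to be binding sites.

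Tagln encodes transgelin, an actin-bundling protein and early marker of smooth muscle (chr9:45929619-45936058, reverse strand). It ran from 204 to 297 RPM in Sham, with a median of 259 RPM, and was 418, 626, 1061, 550 and 566 RPM in Sham-OVA. The highest value was in the shallowest library, and the groups did not overlap (adjusted p = 4.83e-05). In PM it ran from 190.5 to 639.6 RPM with a median of 266 RPM, and PM-OVA held 299, 614, 1096 and 1011 RPM. PM replicate 5, at 639.6 RPM, lay above PM-OVA replicates 1 and 2, and the log2 fold change was 1.25 ± 0.37 (adjusted p = 0.00964).

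Actg2 encodes smooth muscle gamma actin, best known from visceral muscle (chr6:83512905-83536265, reverse strand). It ran from 14.2 through 16.2 to 22.3 RPM in Sham and was 20.1, 35.8, 39.5, 30.6 and 24.0 RPM in Sham-OVA. Only Sham-OVA replicate 1 lay within the Sham range, and the log2 fold change was 0.72 ± 0.19 (adjusted p = 0.00373). PM ran from 12.4 through 19.8 to 39.9 RPM and PM-OVA held 17.6, 32.5, 31.7 and 26.5 RPM, all within the PM range. The difference of 0.47 ± 0.29 did not pass (adjusted p = 0.162). It passed without PM replicate 5 (0.65, adjusted p = 0.0224) and under median-of-ratios scaling (0.83, adjusted p = 0.0338). As for Acta2, 0 of its 1234 stretches of 100 bases recurred in another actin transcript.

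Cnn1 encodes calponin 1, which binds actin and slows the myosin ATPase (chr9:22099216-22109630, forward strand). Its level ran from 46.4 through 53.1 to 73.7 RPM in Sham and was 30.7, 46.3, 21.8, 36.3 and 34.0 RPM in Sham-OVA. All Sham-OVA libraries were below all Sham libraries, though replicate 2 lay close to the lowest Sham value, and the log2 fold change was -0.73 ± 0.18 (adjusted p = 0.00194). With edgeR on the recovered reads it did not pass (-0.27, adjusted p = 0.124). In PM it ran from 29.4 through 56.3 to 93.1 RPM, and in PM-OVA it was 30.8, 54.4, 44.6 and 23.2 RPM. These groups overlapped, and the difference of -0.54 ± 0.29 did not pass (adjusted p = 0.114), but did without PM replicate 1 (-0.68, adjusted p = 0.0376) or PM-OVA replicate 2 (-0.73, adjusted p = 0.0495).

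Lmod1 encodes leiomodin 1, which nucleates smooth muscle actin filaments (chr1:135324807-135368065, forward strand). It ran from 15.2 through 21.1 to 33.0 RPM in Sham and was 13.0, 12.2, 4.35, 14.9 and 15.4 RPM in Sham-OVA. Sham-OVA replicate 5 overlapped Sham and replicate 3 lay far below the rest, and the log2 fold change was -1.04 ± 0.28 (adjusted p = 0.00485). PM ran from 15.3 through 25.1 to 39.3 RPM and PM-OVA held 15.1, 19.0, 11.02 and 10.53 RPM. Only PM-OVA replicate 2 lay within the PM range, and the difference of -0.79 ± 0.25 passed (adjusted p = 0.0135). It did not pass under median-of-ratios scaling (-0.44, adjusted p = 0.10) or quantile normalisation (-0.37, adjusted p = 0.174), nor with DESeq2 (-0.48, adjusted p = 0.0868) or edgeR (-0.48, adjusted p = 0.0941).

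Myh11, the smooth muscle myosin heavy chain of the thick filament and the most specific marker of the mature cell (chr16:14194535-14291372, reverse strand), fell in both cohorts. In Sham it ran from 74.6 through 118 to 169 RPM, and in Sham-OVA it was 38.0, 64.0, 24.9, 47.6 and 41.9 RPM. Every Sham-OVA library was below every Sham library. The genes so separated were Myh11, Mylk, Cnn1, Myocd and Chrm3, 5 of the 10, as were 35% of all genes (adjusted p of Myh11 3.99e-05). In PM it ran from 83.9 through 116 to 212 RPM, and PM-OVA held 70.4, 83.5, 37.8 and 22.3 RPM, all below the lowest PM value, replicate 2 by a narrow margin. The log2 fold change was -1.36 ± 0.34 (adjusted p = 0.00401). Separation of all PM-OVA libraries below PM was seen for Myh11, Mylk, Myocd and Chrm3, 4 of the 10, and for 28.6% of all genes, and separation above for 0 of the 10 and 13.3% of all genes.

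Mylk encodes myosin light chain kinase, the enzyme through which calcium starts contraction, and a non-muscle form that endothelium also uses (chr16:34745210-35002420, forward strand). The table gives 1 value for the gene and does not separate the forms. Mylk ran from 425 through 539 to 732 RPM in Sham and was 263, 247, 91.0, 260 and 227 RPM in Sham-OVA, so that the groups were far apart (log2 fold change -1.39 ± 0.24, adjusted p = 0.000151). PM ran from 500.2 through 573 to 671 RPM, and PM-OVA held 436, 259, 148 and 156 RPM. Here too all OVA libraries were lower, PM-OVA replicate 1 being the nearest to PM (-1.35 ± 0.25, adjusted p = 0.000613).

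Des encodes desmin, the intermediate filament of muscle, which skeletal and cardiac muscle and pericytes also make (chr1:75360329-75368579, forward strand). It ran from 149.6 through 172 to 234 RPM in Sham and was 226, 326, 477, 272 and 291 RPM in Sham-OVA. Only Sham-OVA replicate 1 fell within the Sham range, and the log2 fold change was 0.79 ± 0.18 (adjusted p = 0.00118). In PM it ran from 153 through 179 to 295 RPM and in PM-OVA it was 157, 299.9, 495 and 403 RPM. PM-OVA replicate 1 lay within the PM range, and the difference of 0.74 ± 0.27 passed narrowly (adjusted p = 0.0312). It was lost without any 1 of 6 libraries, PM replicates 1, 3 and 6 and PM-OVA replicates 2, 3 and 4, with log2 fold changes of 0.51 to 0.75 and adjusted p of 0.053 to 0.126.

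Myocd encodes myocardin, the coactivator of serum response factor that drives the contractile genes (chr11:65176561-65269989, reverse strand), and it was the least abundant member. It ran from 0.637 through 1.58 to 3.26 RPM in Sham (11 to 65 reads) and from 1.195 through 1.56 to 1.94 RPM in PM (19 to 38 reads). Sham-OVA held 0.139, 0.226, 0, 0.319 and 0.292 RPM, resting on 2, 3, 0, 4 and 4 reads. PM-OVA held 0.403, 0.541, 0.664 and 0 RPM, resting on 6, 7, 5 and 0 reads. Both OVA groups lay below their saline group in every library as listed, but 0 reads allow up to 0.932 RPM in Sham-OVA replicate 3, above the lowest Sham value, and up to 0.545 RPM in PM-OVA replicate 4. These limits cover counting error alone. On the log2(RPM + 0.5) scale, which understates the change of so low a gene, the differences were -1.54 ± 0.28 (adjusted p = 0.00024) and -1.23 ± 0.24 (adjusted p = 0.000761). Among the OVA libraries only PM-OVA replicates 2 and 3 reached the 0.5 RPM of the filter. Myocd was therefore tested because of its saline libraries, a selection that favours a fall.

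Chrm3 encodes the muscarinic M3 receptor, through which acetylcholine and methacholine contract airway smooth muscle (chr13:9875486-10360847, reverse strand). It ran from 3.36 through 6.48 to 7.21 RPM in Sham, and the Sham-OVA libraries held 2.22, 1.51, 0.311, 1.99 and 1.32 RPM on 32, 20, 1, 25 and 18 reads. All Sham-OVA values were below the lowest Sham value (log2 fold change -1.72 ± 0.30, adjusted p = 0.000153). PM ran from 3.95 through 5.88 to 6.81 RPM, and PM-OVA held 2.55, 2.86, 1.46 and 0.363 RPM on 38, 37, 11 and 2 reads. All PM-OVA libraries were again lower (-1.53 ± 0.33, adjusted p = 0.00153). The lowest value of each OVA group came from a shallow library.

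**Figure D2:**
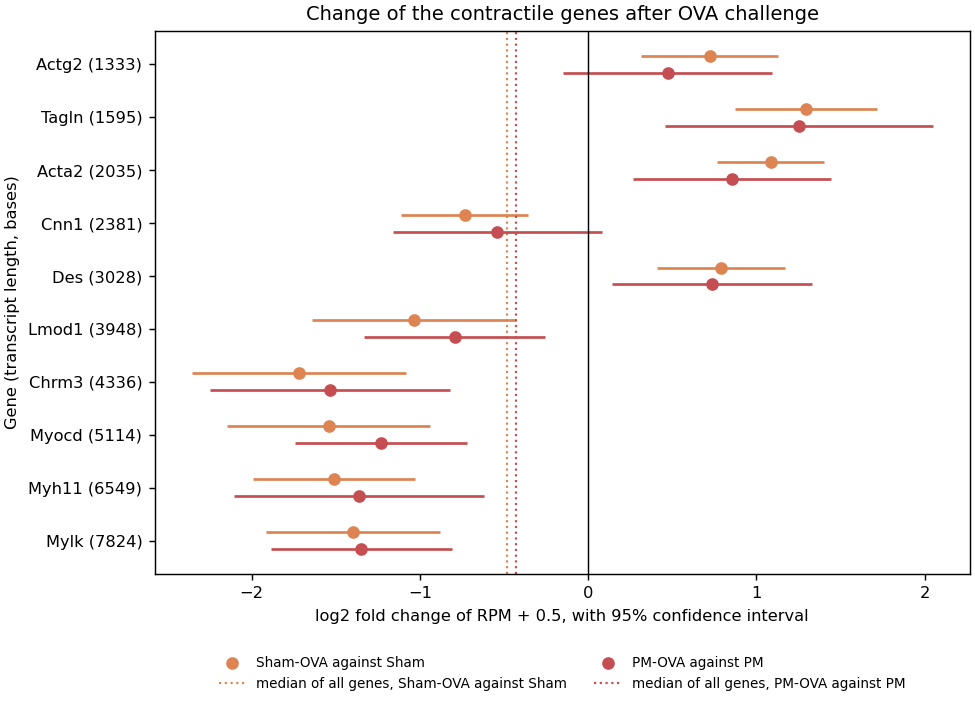
Log2 fold change of log2(RPM + 0.5) with its 95% confidence interval for each contractile gene, in Sham-OVA against Sham and PM-OVA against PM. Genes are ordered by transcript length, and dotted lines mark the median of all genes tested, -0.48 and -0.43. Acta2, Tagln, Des and Actg2 lie above 0 and the other 6 below it in both comparisons.

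The 3 shallowest libraries, 1 from Sham-OVA and 2 from PM-OVA, bore on the cohorts differently. Without them all 10 genes still passed in Sham-OVA against Sham, beside 72.3% of all genes. In PM-OVA against PM, where 2 OVA libraries remained, 3 of the 10 and 51% of all genes passed (19.7% higher and 31.3% lower). All 3 were lower, and Acta2 (0.52, adjusted p = 0.193), Tagln (0.60, adjusted p = 0.205), Des (0.22, adjusted p = 0.505), Myh11 (-0.67, adjusted p = 0.0739) and Lmod1 (-0.48, adjusted p = 0.172) did not. Without PM replicate 5 and Sham replicate 1, the counts were 10 and 9, beside 65.7% and 64.8% of all genes.

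Levels were compared between genes per kilobase of exon, over all annotated exons of a gene. In Sham, Tagln led with 126 ± 18.0 RPM per kilobase of exon (SD, n = 7), followed by Acta2 with 62.7 ± 10.1, Mylk with 48.2 ± 8.76 and Des with 47.9 ± 7.66, and these last 3 overlapped within 1 SD. Their order depends on the length used, since per kilobase of the single transcript whose length is given later Mylk had 69.4 ± 12.6, Acta2 67.6 ± 10.9 and Des 59.4 ± 9.50 RPM. Cnn1 with 20.3 ± 3.24, Myh11 with 16.1 ± 3.89 and Actg2 with 11.4 ± 2.02 came next. The SD ranges of neighbours among these 3 overlapped. Then came Lmod1 with 6.03 ± 1.56, Chrm3 with 0.907 ± 0.248 and Myocd with 0.258 ± 0.144. In Sham-OVA, Tagln had 324 ± 123 RPM per kilobase (SD, n = 5), Acta2 133 ± 22.5 and Des 84.8 ± 25.5. Mylk with 19.3 ± 6.41 stood beside Actg2 with 19.3 ± 5.15 and Cnn1 with 12.4 ± 3.25, and these 3 overlapped within 1 SD, as did Myh11 with 5.69 ± 1.88 and Lmod1 with 3.03 ± 1.13, which followed. Chrm3 had 0.235 ± 0.119 and Myocd 0.0304 ± 0.0201. PM had Tagln at 153 ± 76.2, Acta2 at 74.6 ± 28.9 and Myh11 at 16.9 ± 5.90, and PM-OVA had 380 ± 186, 135 ± 41.6 and 7.04 ± 3.72 RPM per kilobase (SD, n = 7 and n = 4).

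Ratios within a library do not depend on the scaling of that library. A trend with transcript length, described below, does not cancel in them. The log2 ratio of Myh11 to Acta2 (of RPM + 0.5) was -0.20 ± 0.34 in Sham and -0.35 ± 0.20 in PM (SD), against -2.79 ± 0.50 in Sham-OVA and -2.57 ± 1.25 in PM-OVA. Mylk moved against Acta2 in the same way, from 1.97 ± 0.35 and 1.88 ± 0.39 to -0.51 ± 0.78 and -0.32 ± 1.25. Cnn1 to Acta2 went from -1.30 ± 0.07 and -1.55 ± 0.22 to -3.12 ± 0.42 and -2.94 ± 0.69. The ratios among the 4 genes that were higher moved less, as is built in when genes are grouped by their rise in these same libraries. Tagln to Acta2 was 0.87 ± 0.20, 0.85 ± 0.24, 1.08 ± 0.36 and 1.25 ± 0.37 in Sham, PM, Sham-OVA and PM-OVA, and Des to Acta2 was 0.39 ± 0.10, 0.26 ± 0.17, 0.09 ± 0.28 and 0.14 ± 0.24. Actg2 to Acta2 was -2.93 ± 0.11 and -3.02 ± 0.14 in the saline groups and -3.29 ± 0.17 and -3.40 ± 0.25 in the OVA groups. These ratios were not tested further.

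The direction of the contractile genes ran with the length of their transcripts. Actg2 (1333 bases), Tagln (1595), Acta2 (2035) and Des (3028) rose, and Lmod1 (3948), Chrm3 (4336), Myocd (5114), Myh11 (6549) and Mylk (7824) fell, while Cnn1 (2381) was shorter than Des but fell. Across the 10 genes, the log2 fold change and log2 length had a Pearson r of -0.84 and a Spearman rho of -0.78 in Sham-OVA against Sham, and -0.85 and -0.82 in PM-OVA against PM. These describe 10 genes measured in the same libraries, which are not independent.

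All genes moved with length too. Divided by transcript length into 5 bins of equal size, the tested genes had median log2 fold changes of 0.17, -0.17, -0.46, -0.70 and -1.06 from shortest to longest in Sham-OVA against Sham, and 0.19, -0.12, -0.39, -0.67 and -1.03 in PM-OVA against PM. In the longest bin, which holds Myocd, Myh11 and Mylk, 73.5% of genes passed as lower and 6.87% as higher in Sham-OVA against Sham, whereas in the shortest, which holds Actg2 and Tagln, 24.8% and 37.9% did. Within single libraries, log2 RPM against the mean of the Sham libraries changed by -0.10 to 0.10 per doubling of length in the saline libraries. It changed by -0.53 to -0.39 in Sham-OVA and by -0.52 to -0.20 in PM-OVA. The slope was steepest in Sham-OVA replicate 3 and PM-OVA replicate 3, and PM-OVA replicate 1 had the shallowest slope of the OVA libraries. The part of library preparation, RNA quality or the tissue in this slope was not tested.

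With the trend on length and GC content removed from each library, an alternative chosen after seeing the data, all 10 genes still passed in Sham-OVA against Sham, beside 63.4% of all genes. The genes that rose stayed higher, with Acta2 at 1.30 (adjusted p = 3.62e-05), Tagln at 1.24, Des at 0.96 and Actg2 at 0.56 on the log2 scale. Those that fell moved towards 0, with Myh11 at -0.67 (adjusted p = 0.00355), Mylk at -0.50, Chrm3 at -0.995, Myocd at -0.70, Lmod1 at -0.54 and Cnn1 at -0.48. In PM-OVA against PM 5 of the 10 passed, beside 58.6% of all genes: Acta2 (1.06), Tagln (1.19) and Des (0.84) higher, and Mylk (-0.50) and Chrm3 (-0.84) lower. Myh11 (-0.55, adjusted p = 0.0974), Myocd (-0.41, adjusted p = 0.171) and Lmod1 (-0.33, adjusted p = 0.22) no longer passed.

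**Figure D3:**
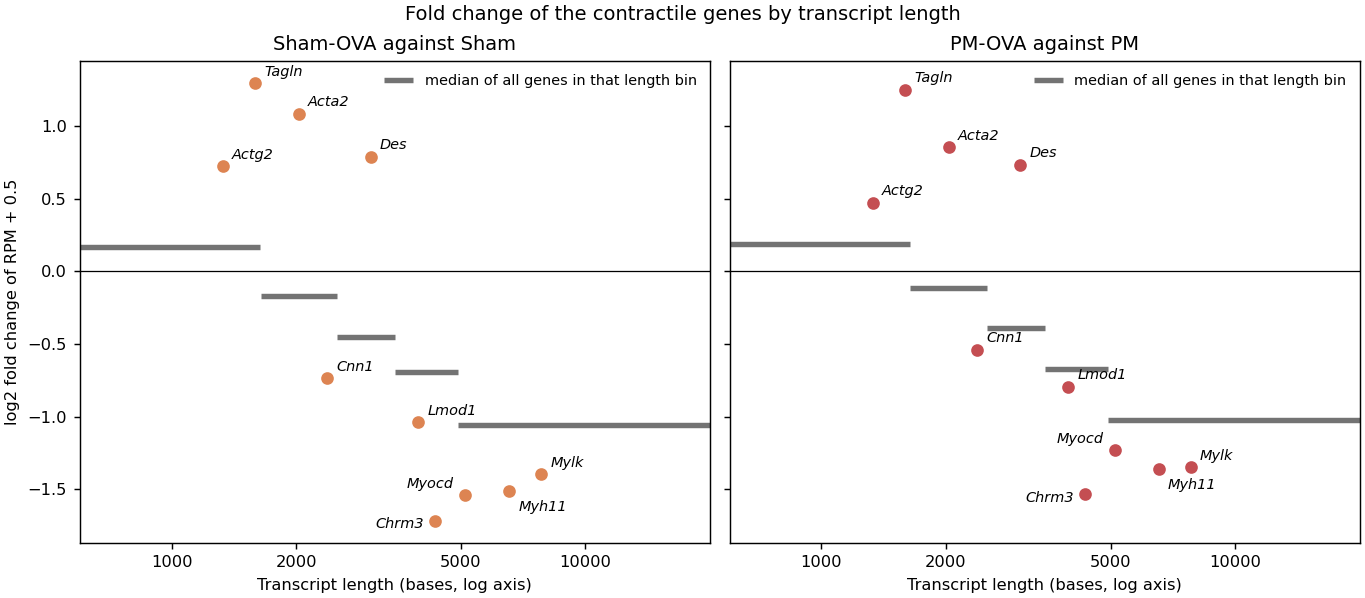
Log2 fold change of each contractile gene (vertical axis) against its transcript length in bases (horizontal log axis), in Sham-OVA against Sham and PM-OVA against PM. Grey bars are the medians of all genes in each of 5 bins of length, from 0.17 to -1.06 and from 0.19 to -1.03. Acta2, Tagln, Des and Actg2 lie above the bar of their bin and the other 6 below it.

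Scaling moved the median of all genes from -0.48 to -0.17 under median-of-ratios and -0.05 under quantile normalisation in Sham-OVA against Sham, and from -0.43 to -0.13 and -0.02 in PM-OVA against PM. The share of all calls that were higher rose from 30.2% to 43.4% and 48.5%, and from 30.8% to 44.7% and 49.3%. The contractile genes stayed at 4 higher and 6 lower under all 3 scalings in Sham-OVA against Sham. In PM-OVA against PM they went from 3 higher and 5 lower to 4 and 4, as Actg2 was gained and Lmod1 lost.

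Most calls among other genes of contraction were lower in OVA-challenged lung, as were most calls over all genes. Over all genes tested, 20.6% rose and 47.5% fell in the Sham cohort, and 20.1% and 45.2% in the PM cohort. These shares stand beside the counts of every list that follows. Transcript length was not taken into account for the lists, although 73.5% and 72.9% of genes in the longest bin fell. Of 17 other contractile and cytoskeletal genes, 1 rose and 9 fell in each cohort. The one that rose was Pdlim7, a scaffold of actin fibres (log2 fold change 0.73 ± 0.17 in the Sham cohort and 0.56 ± 0.23 in the PM cohort, with SE, in the order used for the following values). Synm, an intermediate filament protein that pairs with desmin (-1.73 ± 0.19 and -1.71 ± 0.17), and Vcl, which anchors actin to the membrane (-1.56 ± 0.21 and -1.57 ± 0.22), fell most. Median log2 fold changes were -0.45 and -0.37, close to those of all genes, and under median-of-ratios scaling the counts were 2 higher and 6 lower, and 2 and 4.

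Of 14 genes of myosin phosphorylation and calcium sensitisation, 3 rose and 10 fell in each cohort, with medians of -0.94 and -0.95. Dapk3, a kinase of the myosin light chain (2.08 ± 0.30 and 2.21 ± 0.41), and Ppp1r14a, the inhibitor CPI-17 of myosin phosphatase (0.97 ± 0.20 and 0.96 ± 0.29), rose. Dapk3 was uneven among the OVA libraries, with means of 206 ± 161 RPM for Sham-OVA and 243 ± 177 RPM for PM-OVA (SD) against 41.1 ± 8.23 and 40.1 ± 4.24 RPM for Sham and PM. Rhoa, the GTPase that sensitises myosin to calcium (-1.998 ± 0.26 and -1.94 ± 0.36), and Calm2, a calmodulin gene (-1.81 ± 0.19 and -1.38 ± 0.31), fell. Whether Rhoa or Calm2 shared reads with related genes was not tested.

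Of 21 contractile receptors and G proteins, 1 rose and 10 fell in Sham-OVA against Sham, and 1 and 11 in PM-OVA against PM (medians -0.95 and -0.69). The muscarinic M2 receptor gene Chrm2 fell most, from 17.1 ± 7.73 RPM in Sham to 1.28 ± 0.557 RPM in Sham-OVA and from 16.1 ± 3.11 RPM in PM to 2.09 ± 1.74 RPM in PM-OVA (-3.28 ± 0.32 and -3.06 ± 0.46). Chrm2 so moved the same way as Chrm3, and which cells its reads came from was not tested. Ednrb, an endothelin receptor gene that endothelium also expresses, fell as well (-2.15 ± 0.28 and -1.67 ± 0.45). Rgs5, a regulator of G protein signalling made by smooth muscle and pericytes, rose from 12.1 ± 2.89 to 51.8 ± 9.93 RPM and from 13.0 ± 2.44 to 50.95 ± 8.24 RPM (2.06 ± 0.18 and 1.93 ± 0.18). Under median-of-ratios scaling 4 of the receptor genes were higher and 10 lower in the Sham cohort, and 6 and 10 in the PM cohort.

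Of 21 genes for calcium and potassium channels and pumps, 3 rose and 17 fell in each cohort, with medians of -1.33 and -1.39. Among all genes 47.5% and 45.2% fell, with medians of -0.48 and -0.43, and in the longest bin the medians were -1.06 and -1.03. Pln, which restrains the calcium pump of the sarcoplasmic reticulum (-3.02 ± 0.40 and -2.65 ± 0.42), and Ryr2, a calcium release channel (-2.21 ± 0.34 and -2.11 ± 0.32), fell most, and cardiac muscle also expresses both. Cacna1h, a T-type calcium channel gene (1.75 ± 0.29 and 1.64 ± 0.53), and Orai1, the pore of store-operated calcium entry (1.33 ± 0.16 and 1.26 ± 0.15), rose. Of 13 transcription factors of smooth muscle, 3 rose and 7 fell in each cohort. Srf, which encodes serum response factor, rose (0.88 ± 0.29 and 0.79 ± 0.31), as did Klf5 (0.71 ± 0.22 and 0.81 ± 0.29), while Klf4, which represses contractile genes and is also an immediate early gene of many lung cells, fell most (-5.80 ± 0.27 and -4.81 ± 0.90), followed by Tead1 (-2.58 ± 0.28 and -2.62 ± 0.38).

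Markers of other cells that make some of these proteins moved as well, and their part in the results was not tested. Of 10 cardiac muscle markers, a tissue present in the walls of pulmonary veins in mice, 9 were tested and 3 fell in each cohort: Myh6 (-5.27 ± 0.60 and -4.66 ± 0.54), Sln (-1.45 ± 0.48 and -0.94 ± 0.33) and the most abundant, Actc1 (-1.40 ± 0.23 and -1.04 ± 0.17). The other 6 tested markers did not pass in either cohort and went in both directions. The summed level of the cardiac markers was 113 to 259.8 RPM in Sham and 154 to 322 RPM in PM. It was 63.7 to 476 RPM in Sham-OVA and 108 to 214 RPM in PM-OVA. Myh6, a cardiac myosin, was 2.43 to 59.0 RPM in Sham and 15.8 to 65.4 RPM in PM. It was 0.209, 0, 0.932, 0.0797 and 0.0730 RPM in Sham-OVA and 3.56, 0.541, 0.266 and 0 RPM in PM-OVA. Of 8 skeletal muscle markers 5 were tested. Tnni2 rose in both cohorts (1.42 ± 0.23 and 1.30 ± 0.19), and in Sham-OVA against Sham Tnnt3 rose (0.87 ± 0.28) and Acta1 fell (-1.14 ± 0.48). The most abundant, Ckm, changed by -0.76 ± 0.64 and -0.19 ± 0.49 and did not pass, and the summed level was 8.86 to 25.9 RPM in Sham, 11.9 to 25.7 RPM in PM, 7.45 to 89.2 RPM in Sham-OVA and 7.26 to 38.5 RPM in PM-OVA. In each group 1 or 2 skeletal markers were at 0 in all libraries, and none of the cardiac, pericyte, fibroblast or lung markers was.

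Of 8 pericyte markers, 2 rose and 5 fell in Sham-OVA against Sham, and 1 and 5 in PM-OVA against PM. Cox4i2 (1.36 ± 0.22 and 1.12 ± 0.31) rose in both cohorts and Ndufa4l2 in the Sham cohort (0.59 ± 0.14), while the channel genes Kcnj8 (-1.93 ± 0.50 and -1.55 ± 0.48) and Abcc9 (-1.58 ± 0.21 and -1.41 ± 0.23) and the most abundant marker, Pdgfrb (-0.77 ± 0.16 and -1.05 ± 0.17), fell. Their sum was 393 to 579 RPM in Sham, 538 to 678 RPM in PM, 388 to 547 RPM in Sham-OVA and 393 to 549.7 RPM in PM-OVA. Of 11 fibroblast and myofibroblast markers 1 rose and 7 fell in each cohort. The collagen gene Col14a1 rose (1.42 ± 0.16 and 1.11 ± 0.16), and Hhip (-2.14 ± 0.17 and -2.15 ± 0.31), Aspn (-1.92 ± 0.47 and -1.57 ± 0.33) and the most abundant, Pdgfra (-1.44 ± 0.21 and -1.58 ± 0.26), fell. Their sum was 1623 to 1909 RPM in Sham, 1724 to 2611 RPM in PM, 748 to 1495 RPM in Sham-OVA and 799 to 1780 RPM in PM-OVA, whereas that of the 10 contractile genes was 1134 to 1657, 1164 to 2298, 1236 to 2044 and 1193 to 2228 RPM. Of the 5 lung markers, 3 rose in the Sham cohort and 2 in the PM cohort, among them the surfactant genes Sftpc (1.19 ± 0.27 and 1.14 ± 0.34) and Sftpa1 (0.76 ± 0.23 and 0.77 ± 0.20). Under quantile normalisation 0 of them were higher in either cohort and 1 was lower in Sham-OVA against Sham.

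**Figure D4:**
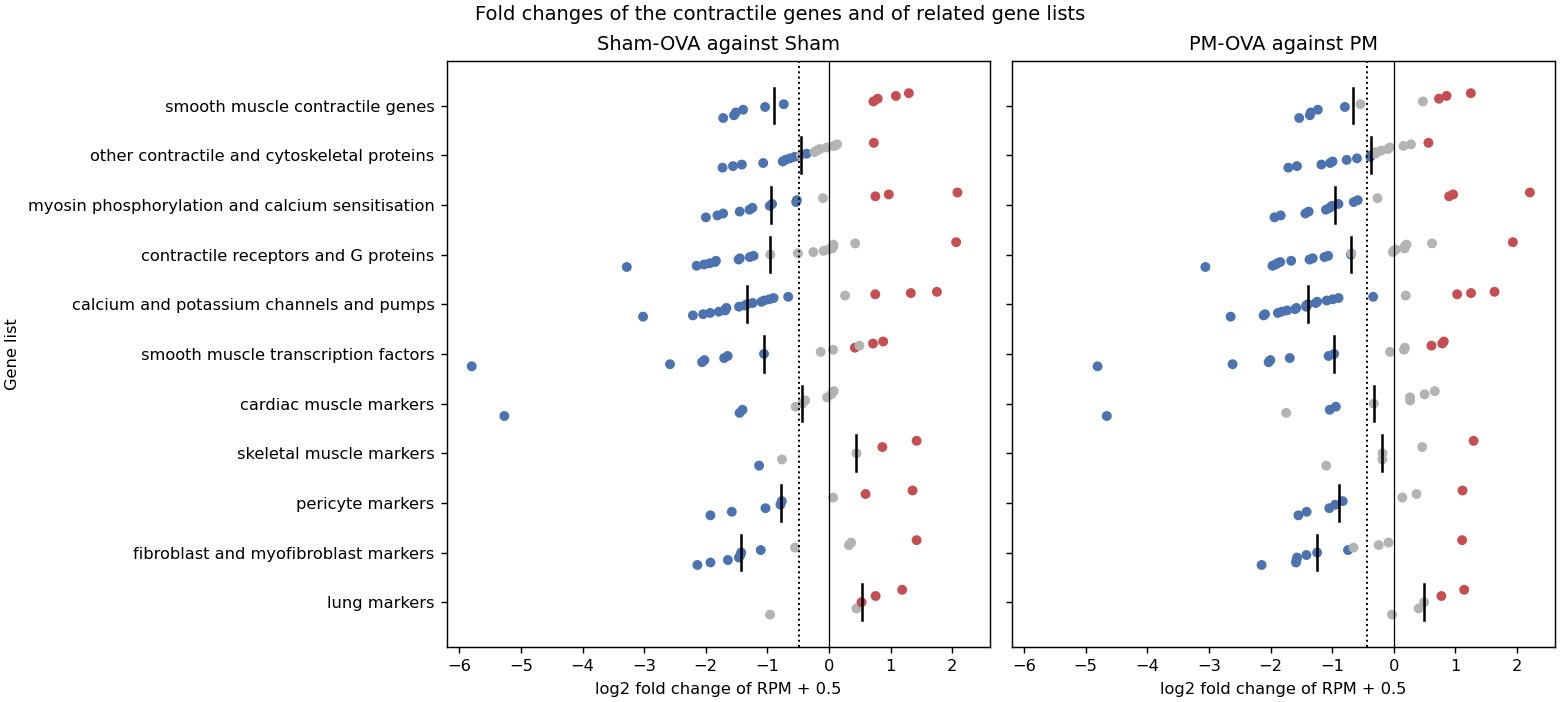
Log2 fold changes of the genes of 11 lists, 1 row per list, in Sham-OVA against Sham and PM-OVA against PM. Red points passed as higher, blue points as lower and grey points did not pass, black bars are list medians and dotted lines the median of all genes tested. The channel and pump genes have the lowest medians among the contraction lists, -1.33 and -1.39.

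Maternal PM2.5 exposure on its own gave no called difference in the contractile genes. In PM against Sham 0 of the 10 passed in limma, as did 0% of all genes, and 0 of the 10 had an unadjusted p under 0.05, which 731 of all genes had. The largest differences were 0.19 for Acta2 (95% confidence interval -0.17 to 0.56) and -0.05 for Cnn1 (-0.44 to 0.34) on the log2 scale, so that the interval of Acta2 includes both no change and a rise of 0.56. In PM-OVA against Sham-OVA 0 of the 10 passed and 0% of all genes did, and at an unadjusted p under 0.05 there were 0 members and 313 of all genes. The extremes were Myocd at 0.33 (-0.28 to 0.94) and Actg2 at -0.14 (-0.74 to 0.45). Neither comparison separated the groups for any member, and 0.00595% and 0.607% of all genes were so separated. DESeq2 and edgeR also called 0 of the 10 in either comparison and in the interaction.

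The interaction, which asks whether the response to OVA differed between offspring of PM2.5-exposed and Sham dams, was called for 0 of the 10 and for 0% of all genes in limma, and at an unadjusted p under 0.05 there were 0 members and 854 of all genes. It was highest for Myocd at 0.31 (95% confidence interval -0.47 to 1.09) and lowest for Actg2 at -0.25 (-0.96 to 0.46). The loss of Cnn1 and Actg2 from the calls of PM-OVA against PM is therefore not shown to be a difference between the cohorts. The interaction of Mylk was 0.05 (-0.70 to 0.79). With array weights it turned to -0.63 and passed (adjusted p = 0.0276), the only member to do so, while 27.5% of all genes passed in that fit. None of the other lists held a called gene in these 3 comparisons.

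Within the saline groups, several contractile genes rose and fell with Acta2 from mouse to mouse. In all 20 relations were tested, the 9 other members and Myh6 against Acta2 in each of Sham and PM (log2(RPM + 0.5), 7 libraries each), with two-sided exact permutation tests over all 5040 pairings and Benjamini-Hochberg adjustment over the 20. By Pearson's r 9 passed, and by Spearman's rho 4. The share of all genes that tracked Acta2 as closely was not computed. The passes are therefore not shown to be particular to the contractile genes. Actg2 passed by both in both groups, with r = 0.90 (exact permutation p = 0.00357, adjusted 0.0119) and rho = 0.93 (p = 0.00675, adjusted 0.0337) in Sham and r = 0.98 (p = 0.000595, adjusted 0.0103) and rho = 0.96 (p = 0.00278, adjusted 0.0337) in PM. Without the 2 libraries farthest from the median of Acta2, r was 0.79 in Sham and 0.94 in PM.

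In PM, Myh11 (r = 0.91, exact permutation p = 0.00258, adjusted 0.0103; rho = 0.93, adjusted 0.0337) and Lmod1 (r = 0.91, p = 0.00139, adjusted 0.0103; rho = 0.93, adjusted 0.0337) passed by both, with r of 0.83 and 0.80 without the 2 farthest libraries. In Sham neither did (r = 0.41, adjusted exact permutation p = 0.422, and r = 0.12, adjusted p = 0.848), and the difference between the groups was not tested. Cnn1 and Des passed in both groups by Pearson's r, with 0.95 and 0.90 in Sham (adjusted exact permutation p = 0.0103 and 0.0193) and 0.90 and 0.98 in PM (0.0238 and 0.0103). Their rho of 0.64 to 0.86 did not pass (adjusted p 0.068 to 0.278), and r fell to 0.59 to 0.80 without the 2 farthest libraries. Chrm3 ran the other way in PM (r = -0.78, exact permutation p = 0.0135, adjusted 0.03; rho = -0.79, adjusted 0.12; r = -0.67 without the 2 farthest libraries) and had r = 0.52 in Sham (adjusted p = 0.341).

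The remaining relations did not pass. In PM, Tagln had r = 0.91 (adjusted exact permutation p = 0.0655), which became -0.82 without replicates 1 and 5, so that it rested on those 2 libraries. The same held for Mylk in PM (0.63, and -0.62 without them). Cardiac Myh6 had r = 0.44 in Sham (adjusted exact permutation p = 0.385) and -0.38 in PM (0.503). PM replicate 5, the library with the highest Acta2, lies far from the other 6 on the Acta2 axis.

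**Figure D5:**
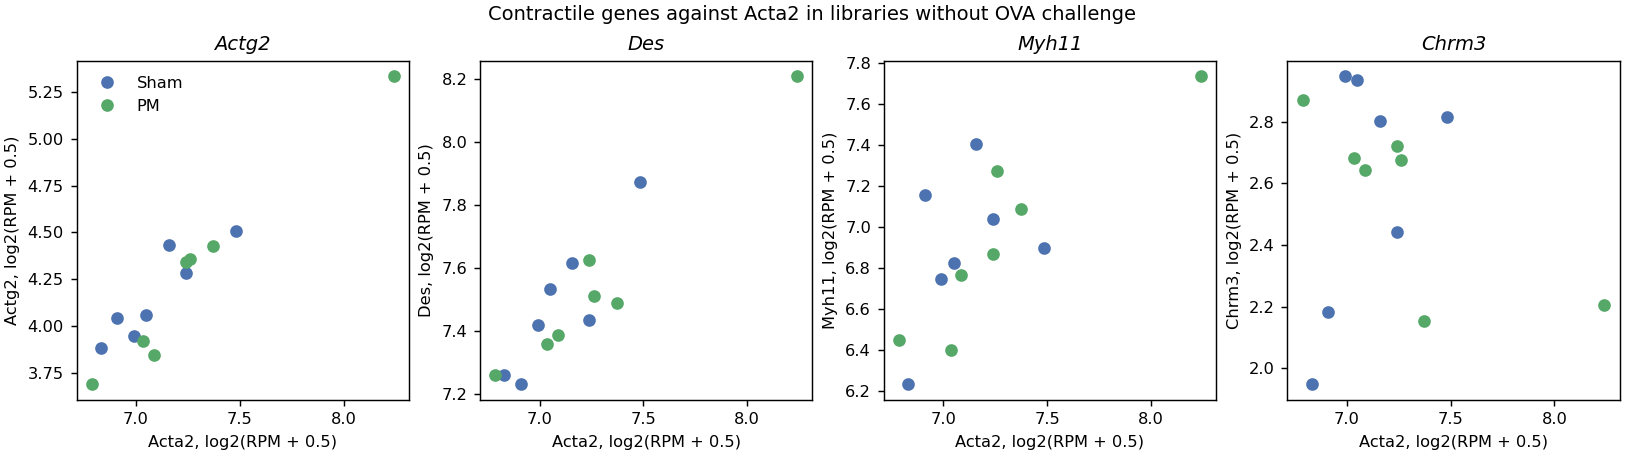
Actg2, Des, Myh11 and Chrm3 (vertical axes) against Acta2 (horizontal axis) in the 7 Sham and 7 PM libraries, all as log2(RPM + 0.5). Each point is 1 library, and the isolated point at the right is PM replicate 5. Actg2 rises with Acta2 in both groups (r = 0.90 and 0.98), and Chrm3 falls with it in PM (r = -0.78).

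As a description, genes outside the list were ranked by their Pearson r with the mean of the 10 members over the 14 saline libraries, after subtraction of the group means. Among the 10 most alike were Galnt16 (0.94), Dscc1 (0.90), Susd5 (0.89), Cspg4 (0.87), Ntrk3 (0.86), Olfml2b (0.85), Mrvi1 (0.84), Pvt1 (0.84) and Sbspon (0.84). Among the members themselves, which enter the mean, r was highest for Actg2 (0.92), Myh11 (0.91) and Acta2 (0.89), lower for Mylk (0.55) and -0.01 for Chrm3. Several of these values rested in part on PM replicate 5, without which r was 0.30 for Chrm3, 0.57 for Tagln in place of 0.80, and 0.69 for Olfml2b, while Galnt16 had 0.95.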

How the data were processed

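RNA-Seq of lung from 23 mice was analysed in the 4 groups of the labels. The authors prepared stranded poly(A) libraries, sequenced single ends of 100 bases, trimmed with Trimmomatic, aligned to GRCm38 with Bowtie2, which does not split reads over introns, and quantified in SeqMonk. Although RPKM is in the name of the table, and was the unit planned for, 100% of the values deposited in each library were whole multiples of 1 read (within 0.05 read). The deposited values were therefore taken as RPM, from which read counts were recovered. In it Ptp4a1 is listed 2 times.

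Values were transformed to log2(RPM + 0.5). Genes had to reach 0.5 RPM in 4 or more libraries, which left 16795. Libraries of any group counted, so a gene could pass through the saline groups alone, as Myocd did. Tests used limma 3.58.1 under R 4.3.3 (variance trend, Benjamini-Hochberg adjustment), on the 2 groups compared or, for the interaction, on all 4. DESeq2 1.42.0 and edgeR 4.0.16 were run on the recovered reads as alternatives. Replicates are separate mice, but shared dams are not given, so p-values measure the spread between these mice. Lengths and coordinates are from GENCODE vM21. A transcript length was found for 98.5% of tested genes, and 5 degrees of freedom were used for each spline in the removal of the trend with length and GC content, which also centres each library. The members and the gene lists were chosen with earlier results of these data known. Named from each other list were the 2 largest rises and 2 largest falls among genes called in Sham-OVA against Sham, the most abundant marker of the cardiac, skeletal, pericyte and fibroblast lists, and the 10 genes most like the members, of which 1 is not reported here.

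Alternatives were pseudocounts of 0.1 and 1, no filter, a mean of at least 1 RPM, median-of-ratios and quantile scaling, all 4 groups in 1 fit, array weights, a replicate block, the threshold of the study and leaving out each library. Added after seeing the data were removal of the trend, leaving out the 3 shallowest libraries, leaving out PM replicate 5 and Sham replicate 1, and, for relations, Spearman's rho and other pseudocounts.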

Additional observations from a re-analysis of the deposited data

Results flagged for a closer look

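Of the 40 sets of values formed by the 10 genes in the 4 groups, 5 held a library that stood apart from its group by Dixon's criterion on the gap to its nearest neighbour, and chance flags about 1 set in 20. In PM, replicate 5 was the highest for Acta2 (302.1 RPM), Tagln (639.6 RPM) and Des (295.3 RPM), with gaps that took 0.597, 0.679 and 0.615 of the range. The same library had less of the endothelial genes Cldn5 (312 RPM) and Ednrb (30.2 RPM) and of Klf4 (23.5 RPM) than the other PM libraries. In Sham-OVA, replicate 3, the shallowest library, was the lowest for Lmod1 (4.35 RPM) and Mylk (91.03 RPM), with gaps of 0.809 and 0.862 of the range, and it had the steepest slope with transcript length of the group.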

How the results depend on the processing

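In Sham-OVA against Sham the 10 calls kept their direction and side of the threshold under every alternative except those named next. The threshold of the study called 0 in limma, and edgeR lost Cnn1. In PM-OVA against PM 8 were called. There the threshold of the study called 0 in limma, and removal of the trend with length and GC content called 5. Leaving out the 3 shallowest libraries called 3, with 2 PM-OVA libraries remaining and 51% of all genes called. With all libraries Lmod1 was lost under both other scalings, DESeq2 and edgeR. Leaving out 1 library gave 6 to 9 calls in PM-OVA against PM, beside 57.1% to 71.9% of all genes. In Sham-OVA against Sham it gave 10, beside 65% to 72.3% of all genes. No member changed direction in either comparison. In the interaction array weights called 1 member, Mylk, with the sign opposite to its value without weights, beside 27.5% of all genes. The lowest member log2 fold change of PM against Sham was -0.186 to 0.016 when 1 library was left out, and turned above 0 without Sham replicate 4. Of 850 member values recomputed in the comparisons of maternal exposure, 103 changed sign. Of the relations with Acta2, 4 passed by Spearman's rho in place of 9, and 9 with either other pseudocount. The cause was not tested for any of these.

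Replicate numbers were not taken to pair the mice, since in no comparison did every same-numbered pair of libraries correlate above 0.1. These numbers are those of the sample titles, and the library names number most OVA libraries differently. PM-OVA replicate 4 has a library name of another form than the rest. Pairing by library name was not tested, so these correlations cannot exclude a pairing of the mice. The correlations were -0.07 to 0.12 (5 pairs) in Sham-OVA and Sham, -0.10 to 0.06 (4 pairs) in PM-OVA and PM, -0.25 to 0.10 (7 pairs) in PM and Sham, and 0.60, 0.22, 0.62 and -0.31 in PM-OVA and Sham-OVA. With the replicate block 10 members were called in Sham-OVA against Sham, beside 59.7% of all genes. In PM-OVA against PM 7 were called, without Lmod1, beside 47.5% of all genes. In the other comparisons 0 members and 0% of all genes were called. Myocd and Chrm3 are limited by depth, resting on at most 7 and 38 reads in an OVA library.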

Other observations

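Srf was spread unevenly over the OVA libraries. It was 69.2 to 98.96 RPM in Sham and 80.1 to 94.3 RPM in PM, and 112, 120, 434, 114 and 126 RPM in Sham-OVA and 83.5, 90.0, 248 and 307 RPM in PM-OVA, so that the highest values were in the 3 shallowest libraries. Klf4 was 44.6 to 114 RPM in Sham and 23.5 to 116 RPM in PM, but 0.903, 1.35, 1.24, 0.319 and 0.365 RPM in Sham-OVA and 35.1, 2.40, 0.398 and 0 RPM in PM-OVA, where replicate 1 lay within the PM range. That library was also the nearest to PM for Mylk, Acta2 and Des. Of the genes most like the contractile genes in the saline libraries, Galnt16 changed by -0.05 ± 0.25 and 0.14 ± 0.25 (SE) on the log2 scale in the Sham and PM cohorts and passed in neither.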
